A study of Mus musculus with 12 samples.

Results

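The genes described here are 9 widely used labels of spiral ganglion neurons: Nefl, Nefm, Nefh, Prph, Tubb3, Stmn2, Gap43, Pou4f1 and Neurod1. They were found by their symbols in the deposited count table, which listed 28686 gene symbols, and all 9 were present. RNA was sequenced from the cochlear tissue of 12 mice at postnatal day 6 (P6), with 1 library for each mouse. The 6 mutants were Sox2CreER/+Jag1fl/fl pups, in which tamoxifen-dependent Cre recombinase made from the Sox2 locus deletes the Notch ligand gene Jag1 in cochlear supporting cells. The 6 controls were Sox2+/+ littermates that carried 1 or 2 floxed Jag1 alleles and no CreER. All pups were given tamoxifen at P0 and P1. The sample labels give a mixed C57BL/6 and 129SV background, whereas the methods of the study name C57BL/6J for the CreER line and FVB/n for the floxed Jag1 line, and the backgrounds of these mice are therefore uncertain. The 2 genotypes therefore differed at Sox2 as well as at Jag1, and the parts of these in a difference cannot be told apart. The litter of each mouse was not given in the sources used here.

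Spiral ganglion neurons have their cell bodies in the bony core of the cochlea and carry the signals of hair cells to the brainstem. Most are myelinated type I neurons, which contact inner hair cells, and the few type II neurons, which contact outer hair cells, are known for the filament protein peripherin. Neurofilament, tubulin and growth-associated proteins build and extend the axon, and transcription factors of the Pou4f and Neurod families are used earlier to specify and maintain the neuron.

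The promoters of Prph and Pou4f1 are shown because these were, of the 8 members with enough counts to test, those in which 1 mutant library, described next, stood furthest above the next mutant as a ratio. The sequences are the 250 bases before the RefSeq transcription start in GRCm38.p6, written 5′ to 3′ on the strand of the gene, with TATAAA (the TATA box) and CANNTG (the E-box, bound by basic helix-loop-helix factors such as NEUROD1) in capitals.
Prph, chr15:99054924-99055173, plus strand: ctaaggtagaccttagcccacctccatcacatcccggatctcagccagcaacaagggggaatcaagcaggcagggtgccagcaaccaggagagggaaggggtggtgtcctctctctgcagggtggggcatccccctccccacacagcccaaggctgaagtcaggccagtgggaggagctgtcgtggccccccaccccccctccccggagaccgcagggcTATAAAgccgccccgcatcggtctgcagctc
Pou4f1, chr14:104468000-104468249, minus strand: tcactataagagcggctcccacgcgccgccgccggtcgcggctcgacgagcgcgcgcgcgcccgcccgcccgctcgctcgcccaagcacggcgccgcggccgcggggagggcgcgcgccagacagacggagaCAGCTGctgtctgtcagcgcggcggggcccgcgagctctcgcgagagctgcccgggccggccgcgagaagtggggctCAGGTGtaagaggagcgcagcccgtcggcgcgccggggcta
The Prph window held 1 TATA box, which began 31 bases before the start, and 0 E-boxes. The Pou4f1 window held 0 TATA boxes and 2 E-boxes. GGGCGG, the GC box, matched 1 time in the Prph window and 2 times in the Pou4f1 window, and the GC content was 65.2% and 78%. Searched on both strands in 32851 promoter windows of the same length, the TATA box was present in 12.4%, the E-box in 66.2% and the GC box in 32.7%. These matches describe letters only. RefSeq promoters were matched for 4 of the 9 members, the other two being Tubb3 and Neurod1.

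The libraries held 28498549 to 34430252 counted reads in controls and 31899265 to 36134983 in mutants. Levels are given as CPM, the counts of a gene scaled to 1000000 counted reads after TMM normalisation of the library totals. As a check of the labels, Jag1 averaged 102 ± 14.7 CPM over the controls against 36.4 ± 6.56 CPM over the mutants (SD, n = 6 each), with no overlap. The hair cell list (13 of 13 genes) and the supporting cell list (12 of 12) were detected above the count minimum. Olig2 and Neurod6, which define central oligodendrocytes and cortical neurons, reached at most 2 counts and 1 count in any library. Other genes often used for central tissue were present: Slc1a2 at 5311 to 9064 counts, Aqp4 at 421 to 989, Gad1 at 71 to 214 and Gfap at 63 to 144 per library.

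The library of mutant 4 stood apart from the others. In it, 68 of 18459 tested genes were over 5-fold above the highest of the other 11 libraries, with each of those libraries set to at least 3 counts, against 0 to 3 such genes in each other library. Prph was among them, and no gene of the 11 marker lists described here was. The genes named next were chosen after their values were seen. Tlx3 and Prrxl1, homeobox genes known from somatosensory neurons, had 106 and 301 counts there and at most 1 and 2 elsewhere. Hoxd1 had 110 counts in mutant 4 and 0 in the other 11 libraries, at least 30.1-fold higher against a floor of 3 counts per library. Avil, which encodes an actin-binding protein of peripheral sensory neurons, was at 59.1 CPM, 34.5-fold above the next library. The voltage-gated sodium channel gene Scn9a was at 59.5 CPM, 13.6-fold above the next library, and Scn10a and Scn11a had 50 and 176 counts against at most 5 and 4. Tac1, which encodes the precursor of substance P, had 349 counts against 0 to 1. Where RNA of these genes in mutant 4 came from was not tested, and the tests of the members below are given with and without this mouse. Isl1, which is shared by many sensory neurons, was at 37.0 to 60.4 CPM over the controls and at 44.8 to 65.7 CPM over the mutants, with mutant 4 highest but close to the others. Which cells of this tissue the Isl1 RNA came from was not tested.

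**Figure D1:**
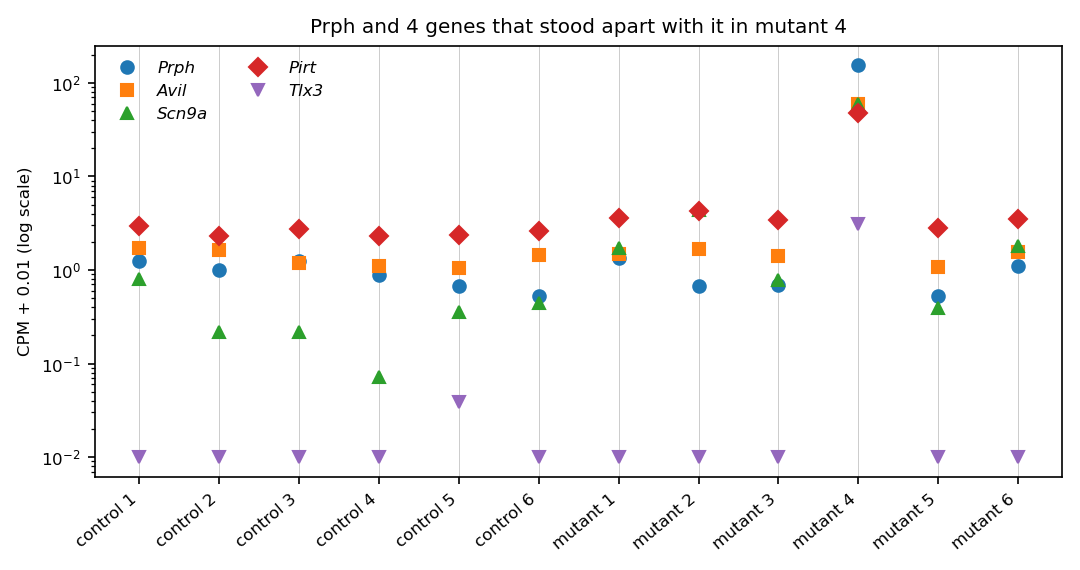
Level of Prph and of genes chosen after their values were seen, in each of the 12 libraries. The vertical axis is CPM + 0.01 on a log scale, each point is 1 mouse, and each symbol is a gene (Prph, Avil, Scn9a, Pirt and Tlx3). Prph was at 155 CPM in mutant 4 and at most 1.35 CPM in the other 11 libraries.

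The main question was whether the neuronal genes differed between the genotypes. All 8 members that could be tested had a higher mean in mutants, Prph through mutant 4 alone, but 0 of the 8 passed the threshold of edgeR's quasi-likelihood test (adjusted p under 0.05), at which 0.19% of the 18459 tested genes were called. At an unadjusted p under 0.05, 8 of 8 were higher in mutants, where 6.52% of all genes tested were. The median log2 fold change of the 8 was 2.72, beside 0.003 over all genes tested. Without mutant 4 it was 1.85, 0 of 8 were called (0.359% of 18396 genes), and 7 of 8 were higher at an unadjusted p under 0.05 (5.63% of genes). DESeq2 called 6 of the 8 higher and gave no p for Prph, where it called 2.57% of the 18376 genes with an adjusted p higher. Without mutant 4 it called 3 of 8 (2.03% of genes). These members share cells and libraries, so they are not independent of one another. In this bulk tissue, the number of neurons, the RNA per neuron and the amount of ganglion kept in each dissection cannot be told apart. The paper's Results name the sample as sensory epithelium and its methods as cochlear tissue. By counts in stained sections at P6, the paper reported no significant difference in the density of spiral ganglion neurons.

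**Figure D2:**
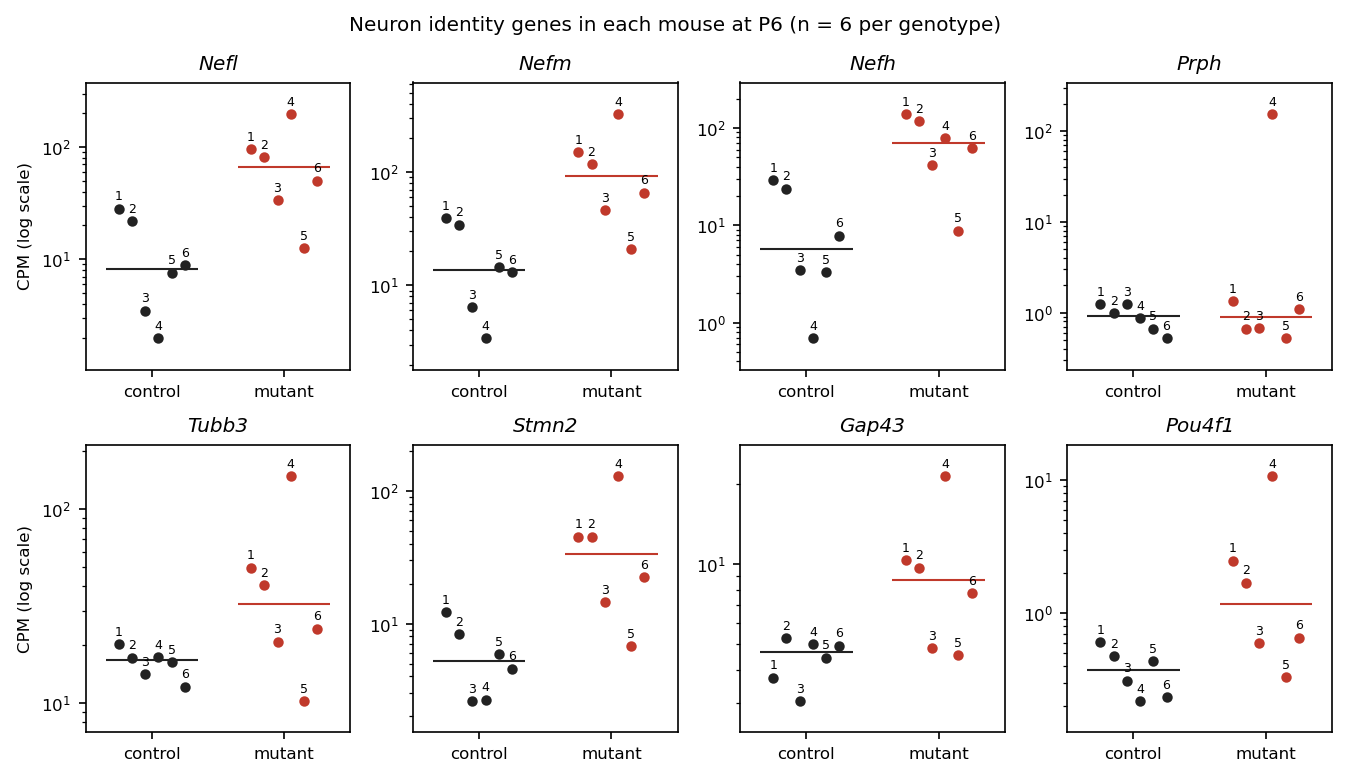
CPM of the 8 tested members in each mouse, on log axes, with controls and mutants side by side, the mouse number above each point and a line at each median. For Nefl, Nefm, Nefh, Stmn2 and Tubb3, 5 of the 6 mutants lay above the highest control, and the mutant below it was mutant 5.

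Per kilobase of RefSeq mRNA, the members differed widely in level. In controls, Tubb3 was at 8.65 ± 1.47 CPM per kb, Nefm at 5.53 ± 4.42, Nefl at 3.54 ± 3.13, Gap43 at 3.11 ± 0.602, Stmn2 at 2.92 ± 1.78 and Nefh at 2.85 ± 3.01 (SD, n = 6 each). Each neighbour in this order lay within the spread of the next. Prph followed at 0.494 ± 0.159, Pou4f1 at 0.0853 ± 0.0343 and Neurod1 at 0.0136 ± 0.0163 CPM per kb. The ranges of Prph, Pou4f1 and Neurod1 did not overlap one another, while the highest Prph control (0.669) exceeded the lowest Nefh control (0.172). In mutants the order began with Nefm at 36.2 ± 33.2, Tubb3 at 26.1 ± 26.9, Nefl at 23.2 ± 19.5, Stmn2 at 21.0 ± 21.4 and Nefh at 18.7 ± 12.1 CPM per kb, all within the spread of their neighbours.

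The 3 neurofilament genes encode the light, medium and heavy subunits that assemble into the filaments of thick axons. Nefl (GRCm38 chr14:68083863-68089095, plus strand) was at 28.2, 21.7, 3.47, 1.96, 7.57 and 8.80 CPM in controls 1 to 6. In mutants 1 to 6 it was at 96.1, 81.6, 33.7, 197, 12.5 and 50.1 CPM. Every mutant was above the control median of 8.19 CPM, and mutant 5 lay within the control range. The spread inside each genotype was of similar size, 14.3-fold from lowest to highest control and 15.8-fold among mutants. The log2 fold change was 2.72 (SE 0.77, 95% interval 1.02 to 4.42, edgeR adjusted p = 0.154, exact permutation p = 0.00866). Without mutant 4 it was 2.20 (SE 0.73, edgeR adjusted p = 0.285, exact permutation p = 0.0195). The permutation p-values of the members are not adjusted.

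Nefm (chr14:68082590-68124846, minus strand) was at 39.0, 34.2, 6.40, 3.40, 14.5 and 13.0 CPM in controls 1 to 6. The mutants 1 to 6 were at 149, 117, 46.1, 325, 20.8 and 65.9 CPM. The order of the mice was close to that of Nefl, with mutant 5 again inside the control range. Its log2 fold change was 2.71 (SE 0.76, 95% interval 1.03 to 4.39, edgeR adjusted p = 0.150), and 2.12 without mutant 4 (SE 0.69, adjusted p = 0.277). Nefl and Nefm are neighbours, and in the GENCODE annotation the full Nefm span overlaps Nefl on the opposite strand over 1108 exonic bases. Their RefSeq mRNAs share 0 bases and lie 30187 bases apart. Whether the counting used strand was not stated, so reads on the shared stretch are uncertain.

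Nefh (chr11:4938754-4948064, minus strand) was at 29.1, 23.9, 3.47, 0.686, 3.30 and 7.84 CPM in controls 1 to 6. In mutants 1 to 6 it was at 140, 118, 41.6, 78.2, 8.83 and 62.3 CPM. Nefh was the member in which mutant 1, and not mutant 4, was highest. It also had the widest control range, 42.4-fold. The log2 fold change was 2.72 (SE 0.85, 95% interval 0.83 to 4.61, edgeR adjusted p = 0.212), and 2.71 without mutant 4 (SE 0.93, adjusted p = 0.316).

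Prph (chr15:99055174-99058978, plus strand) encodes peripherin, an intermediate filament of peripheral neurons. It was at 1.25, 0.982, 1.24, 0.872, 0.665 and 0.523 CPM in controls 1 to 6. Mutants 1, 2, 3, 5 and 6 were at 1.35, 0.667, 0.678, 0.520 and 1.10 CPM, and mutant 4 was at 155 CPM, or 5304 reads against 18 to 44 in the other 11 libraries. The medians of the genotypes were 0.927 and 0.888 CPM. The log2 fold change over all mice was 4.86 (SE 1.75, edgeR adjusted p = 0.311, exact permutation p = 0.649) and rests on mutant 4. Without that mouse it was -0.091 (SE 0.29, 95% interval -0.72 to 0.54, edgeR adjusted p = 0.980).

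Tubb3 and Stmn2 encode microtubule proteins, the neuronal class III beta-tubulin and the tubulin-binding protein SCG10. Tubb3 (chr8:123411424-123422015, plus strand) was at 20.1, 17.1, 14.1, 17.3, 16.2 and 12.1 CPM in controls 1 to 6. Mutants 1 to 6 were at 49.9, 40.4, 20.8, 147, 10.3 and 24.2 CPM. The controls were close together, while mutant 5 was below all of them and 5 of 6 mutants above. The log2 fold change was 1.59 (SE 0.55, 95% interval 0.39 to 2.80, edgeR adjusted p = 0.269), and 0.85 without mutant 4 (SE 0.33, adjusted p = 0.395). For Tubb3 the exact permutation test gave p = 0.0606 over all mice and p = 0.115 without mutant 4.

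Stmn2 (chr3:8509360-8561606, plus strand) was at 12.2, 8.33, 2.61, 2.68, 5.90 and 4.59 CPM in controls 1 to 6. Mutants 1 to 6 were at 45.0, 45.1, 14.4, 128, 6.78 and 22.3 CPM. Only mutant 5 overlapped the controls. Stmn2 had the lowest adjusted p of the 8 members, with a log2 fold change of 2.85 (SE 0.71, 95% interval 1.29 to 4.42, edgeR adjusted p = 0.113, exact permutation p = 0.00866). Without mutant 4 it was 2.14 (SE 0.56, edgeR adjusted p = 0.140, exact permutation p = 0.0152). With mutant 5 left out it was 3.08 and passed the threshold (edgeR adjusted p = 0.0356), which was the one call of a member by edgeR when any single mouse was left out.

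Gap43 (chr16:42248442-42340651, minus strand) encodes a growth cone protein of extending axons. It was at 3.74, 5.27, 3.06, 5.02, 4.45 and 4.94 CPM in controls 1 to 6. Mutants 1 to 6 were at 10.3, 9.71, 4.83, 21.4, 4.54 and 7.77 CPM, with mutants 3 and 5 inside the control range. Its log2 fold change of 1.14 was the smallest of the members (SE 0.33, 95% interval 0.42 to 1.87, edgeR adjusted p = 0.151), and was 0.75 without mutant 4 (SE 0.22, adjusted p = 0.167).

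The transcription factor genes had low counts. Pou4f1 (chr14:104461676-104467999, minus strand), which encodes the POU-domain factor BRN3A of sensory neurons, had 17, 16, 9, 7, 15 and 8 counts in controls 1 to 6. The mutants 1 to 6 had 81, 56, 21, 366, 12 and 22 counts. In CPM the controls were at 0.218 to 0.606 and the mutants at 0.328 to 10.7, and mutants 3 and 5 lay inside the control range. The log2 fold change was 2.85 (SE 0.83, 95% interval 1.03 to 4.66, edgeR adjusted p = 0.159), and 1.59 without mutant 4 (SE 0.48, adjusted p = 0.180). The exact permutation p, unadjusted, was 0.00866 for Nefm, 0.0130 for Nefh, 0.0281 for Gap43 and 0.0216 for Pou4f1. Without mutant 4 the exact permutation p was 0.0173, 0.0238, 0.0390 and 0.0368 in the same order.

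Neurod1 (chr2:79452521-79456751, minus strand), a basic helix-loop-helix factor needed by neuroblasts of the developing ganglion, was close to undetected. Controls 1 to 6 had 3, 0, 0, 0, 2 and 2 counts and mutants 1 to 6 had 3, 3, 1, 15, 1 and 1. It did not reach the mean of 5 counts required for the model. A floor of 3 counts corresponded to 0.0820 to 0.107 CPM, so only mutant 4, at 0.438 CPM, was above it. The exact permutation test did not separate the genotypes (p = 0.236, and p = 0.429 without mutant 4), and a difference below this floor was not detectable at this depth.

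**Figure D3:**
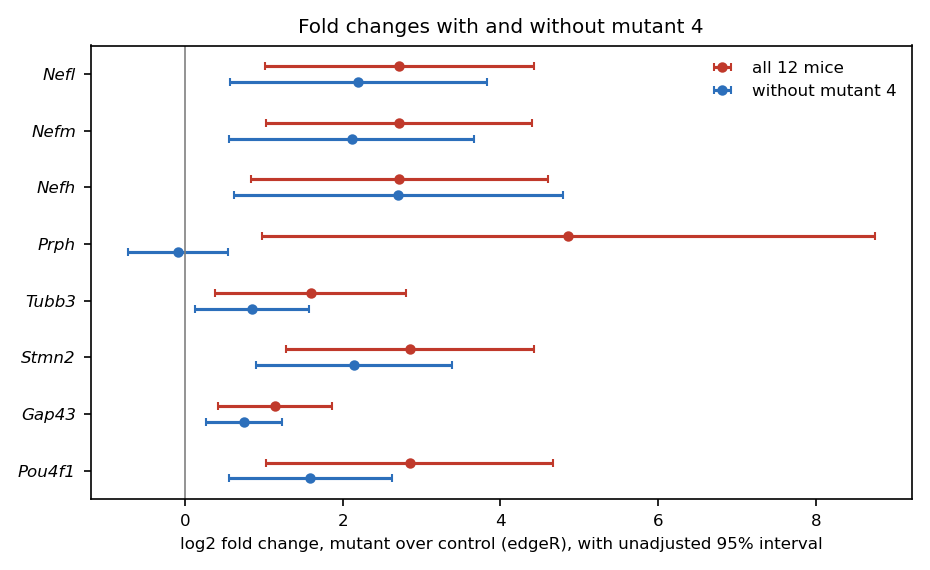
Log2 fold change of mutants over controls for the 8 tested members by edgeR, with unadjusted 95% intervals, over all 12 mice and without mutant 4. Prph moved from 4.86 to -0.091, and the other members kept a positive value, with Nefh at 2.72 and 2.71.

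The mice kept a similar order across members. Mutant 4 was the highest mutant in 7 of the 8 tested members, mutant 5 the lowest mutant in 8 of 8, and control 1 the highest control in 7 of 8. In 0 of 8 members did the genotypes separate without overlap, which 0.618% of tested genes did with the mutants higher. At least 5 of 6 mutants lay above the highest control for 5 members (Nefl, Nefm, Nefh, Tubb3 and Stmn2) against 2.92% of tested genes. After the genotype means were removed, log2 CPM of the 21 pairs without Prph correlated across the 12 mice with r of 0.355 to 0.994, highest for Nefl and Nefm. The 7 pairs with Prph had r of 0.186 to 0.841, and of 0.201 to 0.597 without mutant 4. These correlations describe the same 12 libraries, which also share depth and dissection.

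Ratios within a library compared the members with one another. On log2(CPM + 0.1), Nefh minus Nefl was -0.43 ± 0.68 in controls and -0.03 ± 0.75 in mutants (SD, n = 6 each), a difference within the spread (0.40, exact permutation p = 0.338). Without mutant 4 the difference was 0.66 (exact permutation p = 0.106). Mutant 4 had the lowest value of the mutants, -1.34, against -0.50 to 0.54 in the others. Gap43 minus Nefl was -0.89 ± 1.46 in controls and -2.73 ± 0.67 in mutants (exact permutation p = 0.0216, adjusted over the 3 ratios 0.0649). The difference was -1.84, and -1.74 without mutant 4 (exact permutation, adjusted p = 0.0584). Without control 1 it was -2.23 and passed the threshold (exact permutation, adjusted p = 0.0195). No other of the 12 fits that left out 1 mouse passed, with an adjusted p of up to 0.117 by exact permutation. Prph minus Nefl was -3.07 ± 1.46 and -4.72 ± 2.28 (exact permutation p = 0.167, adjusted 0.25). Without mutant 4, which was at -0.35, the mutants were 2.53 lower than the controls in this ratio (exact permutation p = 0.0108, adjusted 0.0325). That mouse was set aside with its Prph value known, and Prph enters this ratio, so no conclusion is drawn from this p. Such ratios describe unequal differences between members and not a decrease of Gap43 or Prph.

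Other genes of neuronal structure were taken from a list of 20, all of which were tested. Only Dcx, which encodes the microtubule protein doublecortin of young neurons, passed the edgeR threshold (1 up, 0 down). It rose from 2.03 to 4.25 CPM in controls to 5.82 to 11.8 CPM in mutants, with 6 of 6 mutants above the highest control (log2 fold change 1.32, SE 0.22, edgeR adjusted p = 0.0331). Without mutant 4 it was 1.17 (edgeR adjusted p = 0.0367). No gene of the list was called when control 1, 3, 4, 5 or 6 or mutant 2 was left out, and 10 were called without mutant 5. The most abundant genes of the list differed little: Map1b by 0.30 (edgeR adjusted p = 0.650), Dpysl3 by 0.16 (adjusted p = 0.646) and Map2 by 0.26 on the log2 scale (edgeR adjusted p = 0.164). Without mutant 4 these were 0.13, 0.07 and 0.24. The median log2 fold change of the 20 was 1.33, and 1.07 without mutant 4. At an unadjusted p under 0.05, 14 of 20 were higher and 0 lower, where 6.52% of all genes tested were higher and 4.04% lower. Without mutant 4, 14 were higher (5.63% of genes) and 1 was lower (3.85% of genes), namely the synaptotagmin gene Syt1 (-0.39 on the log2 scale, edgeR adjusted p = 0.0970). DESeq2 called 12 of the 20 higher.

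Of 20 further genes known from spiral ganglion neurons, 0 passed the edgeR threshold and 9 were higher at an unadjusted p under 0.05, beside 6.52% of all genes tested. Without mutant 4 it was 9 of 19, beside 5.63%, and DESeq2 with all mice called 6 of the 20 higher. The median log2 fold change was 0.33 (0.34 without mutant 4). The most abundant ones also serve other cochlear cells: the neurotrophin receptor gene Ntrk2 differed by 0.01 (edgeR adjusted p = 0.994), Gata3 by 0.04 (adjusted p = 0.931) and the calcium buffer gene Calb1 by 0.16 (adjusted p = 0.738). The summed CPM of the list was 623 to 735 in controls and 754 to 1075 in mutants, with mutant 4 at 929, inside the range of the other mutants. For the members themselves the sum was 32.1 to 134 in controls and 64.6 to 1064 in mutants, with mutant 4 highest and the other 5 reaching 494.

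Genes of Schwann cells, the myelinating glia of the nerve, had mostly positive fold changes as well. Of 15 tested, 0 passed the edgeR threshold and 13 were higher at an unadjusted p under 0.05 (6.52% of all genes tested), with a median log2 fold change of 1.49. Without mutant 4 the median was 1.64, 13 were again higher at an unadjusted p under 0.05 (5.63% of genes), and edgeR called 1, the myelin gene Ncmap (log2 fold change 1.25, SE 0.21, adjusted p = 0.0367). DESeq2 with all mice called 11 of the 15 higher. Pmp22, a peripheral myelin protein gene, differed by 1.49 (SE 0.38, edgeR adjusted p = 0.113), and S100b, which supporting cells also express, by -0.04 (edgeR adjusted p = 0.940). Without mutant 4 these were 1.64 and -0.05. The summed CPM of the list was 1547 to 2557 in controls and 2392 to 7784 in mutants 1, 2, 3, 5 and 6. In mutant 4 it was 2325, the lowest of the mutants, while that mouse was the highest mutant in 7 members. Among controls, the Schwann cell sum and Nefl were both lowest in control 4 and highest in control 1, and among mutants other than mutant 4 both were lowest in mutant 5 and highest in mutant 1. The part of Schwann cell RNA in the members' values was not tested.

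**Figure D4:**
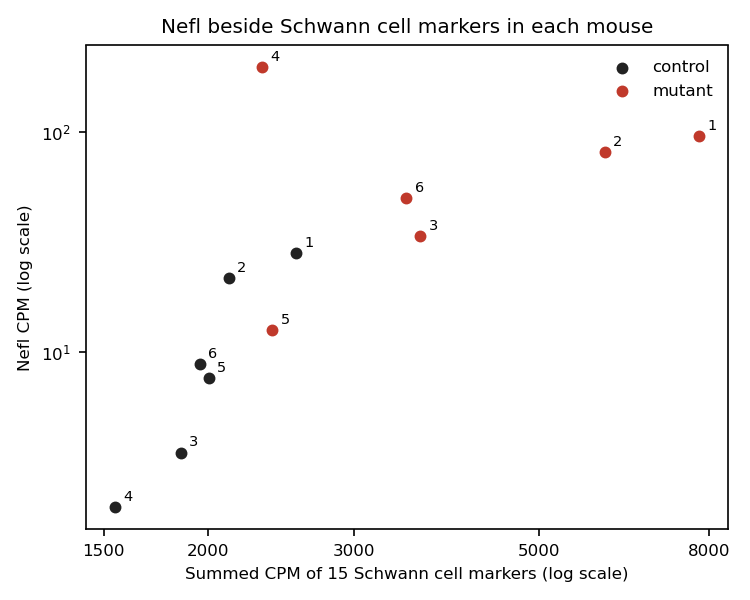
Nefl CPM against the summed CPM of 15 Schwann cell genes, both on log axes, with 1 numbered point for each mouse. Mutant 4 had the highest Nefl, 197 CPM, at a Schwann cell sum of 2325 CPM, and mutant 1 had the highest sum, 7784 CPM, at 96.1 CPM of Nefl.

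No gene of the remaining lists was called by edgeR. No hair cell gene (0 of 13) had an unadjusted p under 0.05 either, and the median log2 fold change was -0.003. The supporting cell list had a median of -0.14, the central nervous system list 0.004, the mesenchyme and bone list -0.13, the endothelium list -0.08, the macrophage list -0.20, the stria vascularis list -0.07 and the erythroid list -0.74. At an unadjusted p under 0.05, 3 of 12 supporting cell genes, 3 of 8 central nervous system genes and 3 of 6 macrophage genes were lower in mutants, where 4.04% of all genes tested were. Without mutant 4 it was 4 of 12, 1 of 7 and 2 of 6, where 3.85% of genes were. DESeq2 called the inhibitory neuron gene Gad1 and the macrophage receptor gene Csf1r lower, with log2 fold changes of -0.76 (adjusted p = 0.00488) and -0.24 (adjusted p = 0.0253). The summed hair cell CPM was 483 to 539 in controls and 426 to 582 in mutants.

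The genes most like the 8 tested members were sought among 14184 others with a mean of at least 50 counts. The measure was Pearson's r with the mean of these members over 12 libraries after the genotype means were removed. Prph, with its high value in mutant 4, was part of that mean. The 5 genes with the highest r are given first. They were P2rx3, which encodes an ATP-gated channel of sensory neurons (r = 0.986), the potassium channel subunit gene Kcnab2 (0.984), Nacad (0.978), Sult4a1 (0.978) and Napb, a gene of synaptic vesicle fusion (0.977). In all, 99 genes had r over 0.9. Without mutant 4 these 5 had r of 0.961 to 0.980. Their log2 fold changes were 3.32, 1.49, 1.79, 2.54 and 1.31, and none passed the edgeR threshold (adjusted p of 0.0834 to 0.184). Without mutant 4 they were 2.01, 1.06, 1.40, 1.87 and 0.97, in the same order. P2rx3 was also one of the 68 genes in which mutant 4 stood apart, at 71.6 CPM there against at most 13.5 CPM elsewhere. Ranked without mutant 4, only Kcnab2 of these genes stayed among the 5 most like the members, and 123 genes had r over 0.9. The highest there was Ina, which encodes the neurofilament partner alpha-internexin and was picked with its values known. It had r = 0.988 over the 11 libraries without mutant 4 and 0.375 over 12. It was at 37.0, 33.3, 9.72, 4.79, 3.66 and 16.9 CPM in mutants 1 to 6, so that mutant 4 was second lowest in Ina and highest in Nefl.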

How the data were processed

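RNA from the cochlea of 6 mutant and 6 control mice was sequenced, and the authors deposited a table of raw read counts per gene. The submitters' processing notes name Trimmomatic 0.32, STAR 2.4.2a, HTSeq 0.9.1, DESeq2 1.10.1 and GRCm38.p4. The annotation and strand setting are not given in the sources used here. Columns of the authors' own comparison (mean, fold change, error, statistic, p and adjusted p) were not used.

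Groups came from the sample labels. Genes with a mean of at least 5 counts (18459) were fitted in R 4.3.3 by edgeR 4.0.16 (TMM factors, robust quasi-likelihood test), with Benjamini-Hochberg adjustment over all of them and a threshold of 0.05. Intervals are 95% and unadjusted. CPM used library totals scaled by the TMM factors. Single values were tested by two-sided exact permutation over mice on log2(CPM + 0.1) (smallest possible p 0.00216). Permutation p-values are unadjusted unless called adjusted. Limma-voom (limma 3.58.1) and DESeq2 1.42.0 (no prior on fold changes), other normalizations, filters, a replicate block and leaving out each mouse were alternatives. DESeq2 without mutant 4 was chosen after seeing the data. The fit was tested on simulated data. Coordinates and exon lengths are from GENCODE M21 (GRCm38), and promoters from RefSeq (GRCm38.p6). The counts of libraries of 1 genotype differed by far more than sampling noise (chi-square per degree of freedom 14.4 to 76.6 in 30 pairs), so no library was taken for a copy of another.

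Named were the members, Jag1, the 3 most abundant genes and every called gene of each of 11 lists, and the 5 genes most like the members. Other than for the neuronal and Schwann cell lists, medians and counts are given, and single genes only where a tool called them or they check the tissue. The members and lists were chosen with earlier results of these data known. Some genes that this rule names are not reported here, but remain in the fits and in the list counts and sums.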

Additional observations from a re-analysis of the deposited data

Results flagged for a closer look

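Of 24 groups of 6 values examined for a sample far from the others, 7 held one. In each, the gap to the nearest sample, as a share of the whole range, exceeded Dixon's 95% critical value. In 6 of them the sample was mutant 4, which was highest of the mutants in Prph at 155 CPM (next 1.35), Tubb3 at 147 (next 49.9), Stmn2 at 128 (next 45.1), Gap43 at 21.4 (next 10.3), Pou4f1 at 10.7 (next 2.48), and the log2 ratio of Prph to Nefl at -0.35 (next -4.35). In the other, mutant 5 had the highest log2 ratio of Gap43 to Nefl among mutants, -1.44 (next -2.67). About 1 group in 20 would pass the critical value by chance, and these groups share mice, so they are not independent.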

How the results depend on the processing

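With DESeq2 6 members were called, 619 of all genes, 12 of the neuronal structure list and 6 of the spiral ganglion list. The members it called had log2 fold changes of 2.71 (Nefl), 2.71 (Nefm), 2.71 (Nefh), 2.85 (Stmn2), 1.14 (Gap43) and 2.85 (Pou4f1), and it gave no p for Prph. DESeq2 without mutant 4 called 3 members (Stmn2, Gap43 and Pou4f1) and 518 genes. Limma-voom called 0 members, 19 genes and 0 of the neuronal structure list, and edgeR with no filter called 57 genes. The cause of these differences was not tested.

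Whether the replicate numbers pair the mice is not known, since litters were not given, and the correlations below cannot decide it. The correlation of same-numbered deviations was -0.187 to 0.272, over 0.1 in 3 of 6 pairs, and 4 of 12 libraries correlated best with their own number. With the replicate number as a block, 0 members, 131 genes, 3 of the neuronal structure list and 3 of the spiral ganglion list were called. Paired over these numbers, the log2 ratio differences were 0.40 for Nefh to Nefl and -1.84 for Gap43 to Nefl (both adjusted p = 0.0469, exact permutation).

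Leaving out 1 mouse at a time gave 0 to 1 called members, 14 to 356 called genes (356 without mutant 5, 66 without mutant 4, 54 without mutant 1, 35 with all mice), 0 to 10 of the neuronal structure list (10 without mutant 5, and 0 without control 1, 3, 4, 5 or 6 or mutant 2) and 0 to 3 of the spiral ganglion list. The log2 fold changes were 2.20 to 3.16 (Nefl), 2.12 to 3.06 (Nefm), 2.45 to 3.24 (Nefh), -0.091 to 5.12 (Prph), 0.85 to 1.81 (Tubb3), 2.14 to 3.16 (Stmn2, adjusted p 0.0356 to 0.249), 0.75 to 1.29 (Gap43), 1.59 to 3.08 (Pou4f1) and -1.54 to -1.39 (Jag1). Prph turned to -0.091 without mutant 4. The log2 ratio differences were 0.21 to 0.66 (Nefh to Nefl), -2.53 to -1.25 (Prph to Nefl) and -2.23 to -1.40 (Gap43 to Nefl). For Gap43 to Nefl the exact permutation adjusted p was 0.0195 to 0.117, under the threshold only without control 1. Depth limits Neurod1 most, and Pou4f1 next. The choices of RLE or upper-quartile factors, a mean count of at least 20 and a fit without robust dispersions changed no call of a member.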
